A study of Mus musculus with 8 samples.

Results

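Fibronectin and the matricellular glycoproteins were followed here through 7 genes: *Fn1*, *Tnc*, *Thbs1*, *Thbs2*, *Postn*, *Sparc* and *Spp1*. They were taken by gene symbol from the deposited table, which holds 18990 genes, and all 7 were among the 13866 tested genes, which averaged 1 CPM (the read count scaled to a common library size, as deposited on a log2 scale) or more. The sharpest pattern was a change of makeup with time. *Spp1* was 8.88-fold higher at day 6 than at day 3 in *siNcor1* and 4.56-fold higher in the *siOct4*-labelled libraries. Over the same days *Thbs1* was 2.29-fold lower in *siNcor1* and 10.9-fold lower in the *siOct4*-labelled libraries. The 7 genes also had higher mean levels in the *siOct4*-labelled libraries at day 3 and lower mean levels there at day 6. By the test, 1 of the 7 (*Tnc*) was higher at day 3, against 0.375% of all tested genes, and 6 were lower at day 6, against 18.6%.

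Fibronectin is the large adhesive glycoprotein that fibroblasts assemble into fibrils and that cells hold through integrins. The matricellular proteins are secreted into the same matrix but serve less as scaffold than as modulators of adhesion, growth factor activity and matrix assembly. The hexameric tenascin-C (*Tnc*), the trimeric thrombospondins 1 and 2, periostin (*Postn*), SPARC (also called osteonectin) and osteopontin (*Spp1*) belong to this group. Most of them are abundant in wound and embryonic fibroblasts, and loss of the fibroblast matrix programme accompanies the early steps towards pluripotency.

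The cells were wild-type primary mouse embryonic fibroblasts (MEFs) of the BL6 strain, reprogrammed at passage 2. All groups carried the tet-STEMCCA lentivirus, in which doxycycline switches on *Oct4*, *Sox2*, *Klf4* and *c-Myc*, together with an rtTA lentivirus, each given at an MOI of 1. Pooled siRNAs against *Ncor1* or against *Oct4* were transfected at 40 nM 1 day before induction, so the knockdown was transient. The medium of every group held 2 µg/mL doxycycline, 3 µM of the GSK3 inhibitor Chiron, 0.25 µM of the TGF-beta receptor inhibitor Alk5i, 50 µg/mL ascorbic acid and LIF. RNA was collected at day 3 and at day 6, which gave 4 groups (*siNcor1* day 3, *siOct4* day 3, *siNcor1* day 6, *siOct4* day 6) with 2 biological replicates each. Libraries of a non-targeting siRNA were not analysed here, so no value is relative to a control.

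The 8 libraries held between 7735742 and 16445192 reads on genes. The non-coding gene *Gm26917* took from 15.5% to 16.6% of each library at day 3, and from 20.3% to 29.1% at day 6. *Ncor1* was at 135 and 146 CPM in *siNcor1* and at 226 and 245 CPM in the *siOct4*-labelled libraries at day 3 (limma, log2 fold change 0.74, adjusted p = 0.0139). At day 6 *Ncor1* was at 153 and 156 CPM in *siNcor1* and at 160.4 and 140.3 CPM in the *siOct4*-labelled libraries, a difference that did not pass the threshold (log2 fold change −0.042, adjusted p = 0.815). *Pou5f1*, which encodes OCT4, was at 197 and 205 CPM in *siNcor1* and at 185 and 197 CPM in the *siOct4*-labelled libraries at day 3, a difference that did not pass the threshold (limma, log2 fold change −0.076, adjusted p = 0.941). At day 6 it was at 187 and 159.7 CPM in *siNcor1* and at 700.1 and 501 CPM in the *siOct4*-labelled libraries. That difference passed the threshold (limma, log2 fold change 1.78, adjusted p = 0.000109). Reads of the lentiviral *Oct4* could not be told apart from those of the gene. The paper reports that *Oct4* mRNA was silenced early in its time course and soon recovered. The paper puts this recovery down to high expression from the induced cassette. Times before day 3 were not sampled in the libraries used here, and the *siOct4*-labelled libraries are named by their label. Of 9 fibroblast markers all 9 were detected in every library, among them *Col1a1*, *Vim* and *Pdgfrb*. Their summed level was between 7373 and 7773 CPM in *siNcor1* and between 10149 and 11518 CPM in the *siOct4*-labelled libraries at day 3, and between 5121 and 5229 CPM and between 2819 and 2975 CPM at day 6. Most of this sum was *Col1a1*, *Col1a2* and *Vim*, so it does not give the course of each marker. With time in *siNcor1*, 4 of the 9 were called higher and 2 lower (limma), against 13.8% and 20.9% of all tested genes.

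On mm10 (GRCm38, GENCODE M21), *Fn1* occupies chromosome 1 from 71585520 to 71653200 on the reverse strand, and *Tnc* chromosome 4 from 63959785 to 64047015, also on the reverse strand. *Thbs1* occupies chromosome 2 from 118111876 to 118127133 on the forward strand, and its paralogue *Thbs2* chromosome 17 from 14665500 to 14694235 on the reverse strand. *Postn* occupies chromosome 3 from 54361109 to 54391037 on the forward strand, *Sparc* chromosome 11 from 55394500 to 55423183 on the reverse strand, and *Spp1* chromosome 5 from 104435118 to 104441050 on the forward strand. Reads were assigned to whole genes, and whether the counting used strand is not given in the sources used here. *8030451A03Rik* overlaps *Tnc* on the other strand with at most 1.90 CPM in any library, and *Gm42793* overlaps *Spp1* on the same strand with at most 1.02 CPM.

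Windows before a RefSeq start were matched for 5 of the 7 genes (GRCm38.p6), and *Fn1* and *Thbs1* were not matched. The sequences are shown of *Tnc*, which fell in the *siOct4*-labelled libraries, and of *Spp1* and *Thbs2*, which rose in *siNcor1*. *Tnc* and *Spp1* went opposite ways with time in the *siOct4*-labelled libraries. *Tnc* was not called with time in *siNcor1*, nor *Thbs2* in the *siOct4*-labelled libraries, so *Tnc* and *Thbs2* were not called in opposite directions in either knockdown. Each sequence runs 5′ to 3′ on the gene's own strand over the 250 bases before a RefSeq start. Capitals mark matches, on either strand, to TATAAA (the TATA box), GGGCGG (the GC box of SP and KLF factors) or TTTGCAT (part of the octamer bound by POU factors such as OCT4), and a match on the opposite strand appears as its reverse complement.
*Tnc*, chr4:64047016-64047265, reverse strand: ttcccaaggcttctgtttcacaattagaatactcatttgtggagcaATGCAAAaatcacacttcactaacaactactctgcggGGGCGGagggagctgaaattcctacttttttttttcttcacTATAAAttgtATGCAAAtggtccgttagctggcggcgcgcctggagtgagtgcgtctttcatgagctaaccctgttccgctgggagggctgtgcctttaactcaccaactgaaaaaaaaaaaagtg
*Spp1*, chr5:104434861-104435110, forward strand: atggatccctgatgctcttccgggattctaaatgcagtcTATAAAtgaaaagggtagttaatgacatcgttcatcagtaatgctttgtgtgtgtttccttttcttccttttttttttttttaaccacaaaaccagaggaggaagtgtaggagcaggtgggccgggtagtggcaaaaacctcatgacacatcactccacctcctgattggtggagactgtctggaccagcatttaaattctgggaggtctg
*Spp1*, second start, chr5:104435942-104436191, forward strand: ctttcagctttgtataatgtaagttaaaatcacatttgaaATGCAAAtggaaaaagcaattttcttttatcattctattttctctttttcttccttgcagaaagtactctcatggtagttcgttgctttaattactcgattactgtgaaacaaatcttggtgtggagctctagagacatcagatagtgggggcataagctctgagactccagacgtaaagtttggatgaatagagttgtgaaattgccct
*Thbs2*, chr17:14694263-14694512, reverse strand: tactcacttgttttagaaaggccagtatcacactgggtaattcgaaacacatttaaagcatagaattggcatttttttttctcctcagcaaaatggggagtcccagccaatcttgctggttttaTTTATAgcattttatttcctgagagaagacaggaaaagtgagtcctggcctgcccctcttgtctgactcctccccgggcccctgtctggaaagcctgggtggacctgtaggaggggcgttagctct
The *Tnc* window held TTTGCAT on the opposite strand at −204 to −198 and at −116 to −110 from the start, and the window of the second *Spp1* start, which lies inside the gene but outside its annotated exons, held it on the opposite strand at −210 to −204. Of all 32851 RefSeq windows of this length, 4.12% held TTTGCAT, 12.4% held TATAAA and 32.7% held GGGCGG. Matches to TATAAA were found in the windows of *Tnc*, *Thbs2*, *Postn* and the first *Spp1* start, and GGGCGG in that of *Tnc*. TGANTCA (AP-1), GGAATG (TEAD), CACGTG (the E-box of MYC) and CATTGT (SOX), which were found in 6.75%, 12.6%, 6.02% and 10.7% of all windows, were not found in the windows of *Tnc*, *Thbs2*, *Postn* and *Spp1*. The *Sparc* window lies 3103 bases from the GENCODE start of the gene and overlaps an exon, so it is not read as the promoter. These matches describe the letters in the windows and were not tested for binding.

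The 7 genes together took a larger share of the reads at day 3 than at day 6. They held 1.02% and 0.897% of the reads on genes in *siNcor1* at day 3, and 0.675% and 0.741% at day 6. In the *siOct4*-labelled libraries they held 1.31% and 1.62% at day 3, and 0.293% and 0.367% at day 6. Leaving *Gm26917* out of the totals, the shares at day 6 were 0.862% and 0.930% in *siNcor1*, and 0.413% and 0.482% in the *siOct4*-labelled libraries, so the order of the groups was the same. In bulk RNA, fewer cells that make a transcript and less of the transcript in each cell cannot be told apart.

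**Figure D1:**
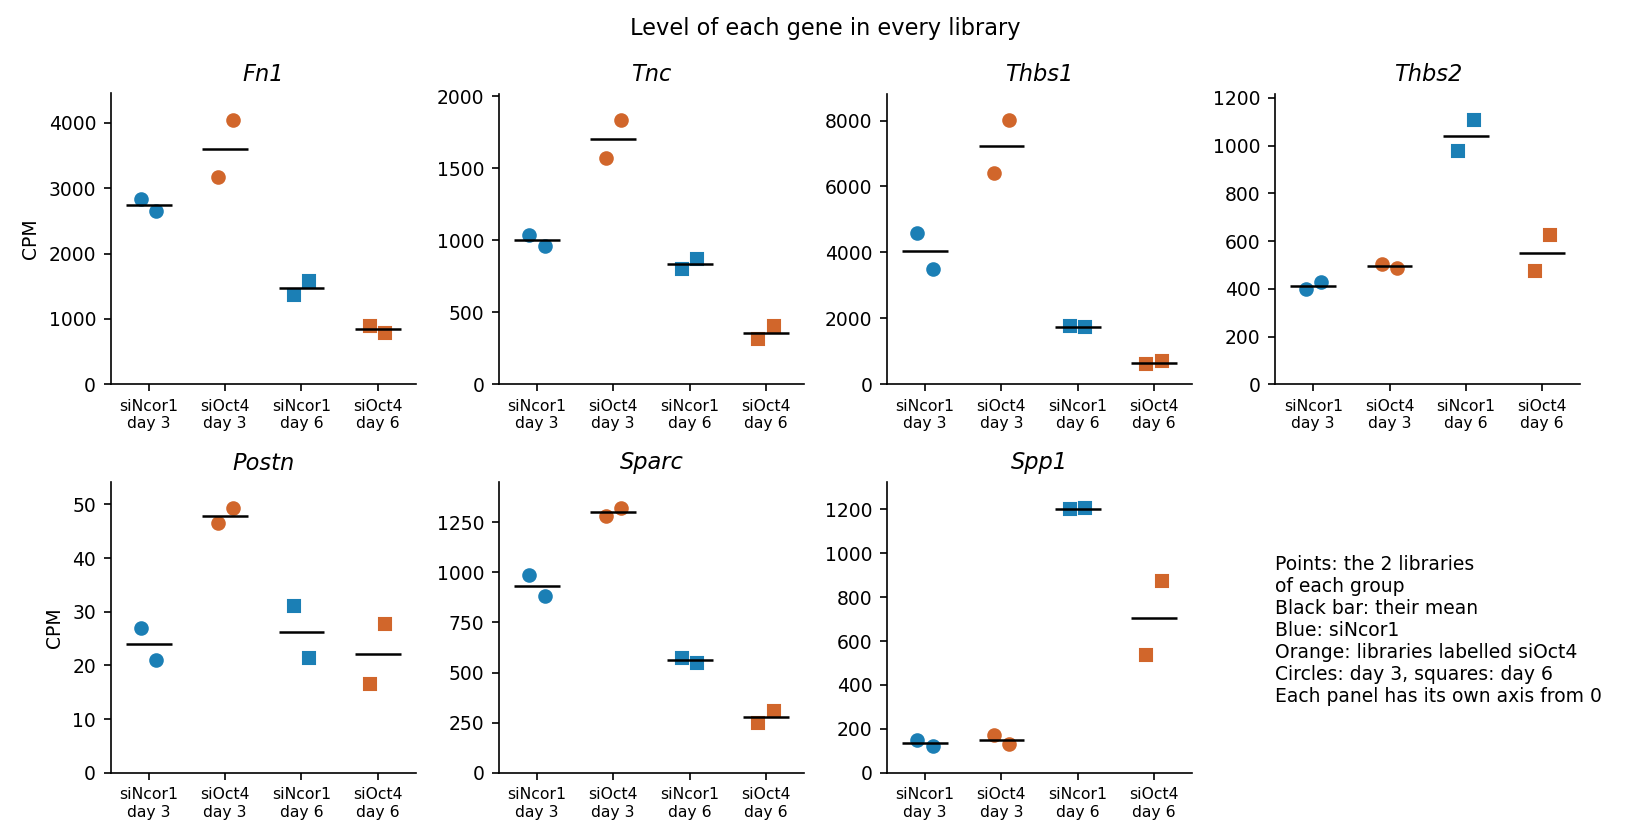
Level in CPM (vertical axes, each from 0) of the 7 genes in each of the 8 libraries, with siNcor1 in blue, the siOct4-labelled libraries in orange, and a black bar at the mean of the 2 libraries of a group. *Fn1*, *Tnc*, *Thbs1* and *Sparc* step down from the siOct4 libraries at day 3 to those at day 6, while *Spp1* lies between 122 and 171 CPM in all 4 libraries of day 3 and between 534 and 1204 CPM in the 4 of day 6.

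*Fn1* encodes fibronectin itself. At day 3 it was at 2833 and 2657 CPM in *siNcor1* and at 3169 and 4045 CPM in the *siOct4*-labelled libraries, and at day 6 it was at 1372 and 1577 CPM and at 889 and 788 CPM. The 4 groups did not overlap, with the *siOct4*-labelled libraries highest at day 3 and lowest at day 6. *Fn1* fell from day 3 to day 6 in *siNcor1* (limma, log2 fold change −0.90, standard error 0.18, adjusted p = 0.00284) and in the *siOct4*-labelled libraries (log2 fold change −2.10, standard error 0.18, adjusted p = 3.86e-06). At day 3 the difference between the knockdowns was 0.38 on the log2 scale (95% confidence interval −0.0081 to 0.78, adjusted p = 0.49), which did not pass the threshold.

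*Tnc* encodes tenascin-C, which interferes with cell adhesion to fibronectin. It was at 1037 and 958 CPM in *siNcor1* and at 1570.1 and 1834 CPM in the *siOct4*-labelled libraries at day 3, and at 799 and 868 CPM and at 311 and 405 CPM at day 6. In *siNcor1* both libraries of day 6 lay below both libraries of day 3. The log2 fold change from day 3 to day 6 was −0.26 (limma, 95% confidence interval −0.61 to 0.090, adjusted p = 0.234), which did not pass the threshold, except with quantile normalization (−0.43, adjusted p = 0.0484). In the *siOct4*-labelled libraries, *Tnc* fell by 2.26 on the log2 scale (limma, standard error 0.16, adjusted p = 1.01e-06), from the highest to the lowest of the 4 groups.

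*Thbs1* encodes thrombospondin 1, which can activate latent TGF-beta and inhibits angiogenesis. It had the highest level of the 7 genes at day 3, also per length of its exons, with 758 and 574 CPM per kb in *siNcor1* and 1055 and 1320 CPM per kb in the *siOct4*-labelled libraries. As CPM, these were 4604 and 3487 in *siNcor1*, and 6410.1 and 8019 in the *siOct4*-labelled libraries. At day 6 it was at 1776 and 1727 CPM in *siNcor1*, and at 607 and 710 CPM in the *siOct4*-labelled libraries. All 4 groups were apart from each other. *Thbs1* fell in *siNcor1* (limma, log2 fold change −1.19, standard error 0.20, adjusted p = 0.00111) and fell by 3.45 in the *siOct4*-labelled libraries (standard error 0.20, adjusted p = 2.9e-07), where the share of tested genes with a lower log2 fold change or the same one was 0.288%.

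*Thbs2* encodes thrombospondin 2, the paralogue that lacks the TGF-beta activating sequence and is known for shaping collagen fibrils. Its course was not that of *Thbs1*. It was at 399 and 427 CPM in *siNcor1* and at 502 and 486 CPM in the *siOct4*-labelled libraries at day 3, and at 977 and 1107 CPM and at 473 and 624 CPM at day 6. The *siNcor1* libraries of day 6 lay above all others, and the *siOct4*-labelled libraries of the 2 days overlapped. *Thbs2* rose in *siNcor1* (limma, log2 fold change 1.33, standard error 0.15, adjusted p = 9.85e-05). In the *siOct4*-labelled libraries its log2 fold change was 0.14 (95% confidence interval −0.19 to 0.47, adjusted p = 0.464), and −0.061 without replicate 2 of *siOct4* at day 6.

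*Postn* encodes periostin, a fasciclin-domain protein that binds integrins and supports collagen crosslinking. It was the lowest of the 7 genes per exon length, between 1.91 and 5.66 CPM per kb over the 8 libraries. It was at 27.0 and 21 CPM in *siNcor1* and at 46.5 and 49.2 CPM in the *siOct4*-labelled libraries at day 3, and at 31.1 and 21.4 CPM and at 16.6 and 27.7 CPM at day 6, from between 157 and 687 reads per library. Only the *siOct4*-labelled libraries of day 3 stood apart, and the other 3 groups overlapped. *Postn* fell there by 1.15 on the log2 scale from day 3 to day 6 (limma, standard error 0.24, adjusted p = 0.00163), and in *siNcor1* the log2 fold change was 0.11 (95% confidence interval −0.41 to 0.63, adjusted p = 0.744).

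*Sparc* encodes a collagen-binding glycoprotein that loosens cell attachment. It was at 986 and 882 CPM in *siNcor1* and at 1281 and 1319 CPM in the *siOct4*-labelled libraries at day 3, and at 574 and 550 CPM and at 247 and 307 CPM at day 6. As for *Fn1*, *Tnc* and *Thbs1*, the 4 groups did not overlap. The share of all tested genes with 4 separate groups was not worked out. *Sparc* fell by 0.73 on the log2 scale in *siNcor1* (limma, standard error 0.14, adjusted p = 0.00257) and fell by 2.24 in the *siOct4*-labelled libraries (standard error 0.14, adjusted p = 4.93e-07).

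*Spp1* encodes osteopontin, a phosphorylated ligand of integrins and CD44 that bone cells, macrophages and epithelia secrete. It was at 150 and 122 CPM in *siNcor1* and at 171 and 131 CPM in the *siOct4*-labelled libraries at day 3, and these groups overlapped. At day 6 it was at 1203 and 1204 CPM in *siNcor1* and at 534 and 875 CPM in the *siOct4*-labelled libraries, all above every library of day 3. *Spp1* rose in *siNcor1* (limma, log2 fold change 3.15, standard error 0.21, adjusted p = 3.65e-06) and in the *siOct4*-labelled libraries (log2 fold change 2.19, standard error 0.21, adjusted p = 8.15e-06). The rise was between 3.00 and 3.30 in *siNcor1* and between 1.83 and 2.54 in the *siOct4*-labelled libraries under 19 other settings.

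Of the other cells known to express *Spp1*, macrophages and osteoblasts were looked for by their markers. Markers of epithelia were not examined here. Of 9 macrophage markers 7 were analysed, and their summed level was between 8.53 and 14.6 CPM at day 3 and between 14.8 and 16.0 CPM at day 6. *Adgre1* was at or below 0.759 CPM and *Tyrobp* at or below 0.420 CPM in every library, and *Ptprc* and *Itgam* were not analysed here. Of the 5 macrophage markers tested, 1 was called higher at day 6 than at day 3 in *siNcor1*, and 2 were called higher and 1 lower in the *siOct4*-labelled libraries. Of 7 osteoblast markers 4 were analysed, with a summed level between 64.7 and 76.5 CPM at day 3 and between 42.1 and 67.7 CPM at day 6. Of the 3 osteoblast markers tested, 1 was lower at day 6 than at day 3 in *siNcor1* and 2 were lower in the *siOct4*-labelled libraries (limma). Of all tested genes 13.8% were higher and 20.9% lower in *siNcor1*, and 22.2% and 30.5% in the *siOct4*-labelled libraries. The part of such cells in the rise of *Spp1* was not tested.

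From day 3 to day 6 in *siNcor1*, 3 of the 7 genes were called lower (*Fn1*, *Thbs1* and *Sparc*) and 2 higher (*Thbs2* and *Spp1*), where 20.9% of all tested genes were called lower and 13.8% higher. In the *siOct4*-labelled libraries, 5 were called lower (*Fn1*, *Tnc*, *Thbs1*, *Postn* and *Sparc*) and 1 higher (*Spp1*), where 30.5% of all tested genes were called lower and 22.2% higher. The median log2 fold change of the 7 genes was −0.26 in *siNcor1* and −2.10 in the *siOct4*-labelled libraries, and that of all tested genes was −0.068 and −0.079. The counts of called members were 5 and 6 with any 1 of the 8 libraries left out.

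**Figure D2:**
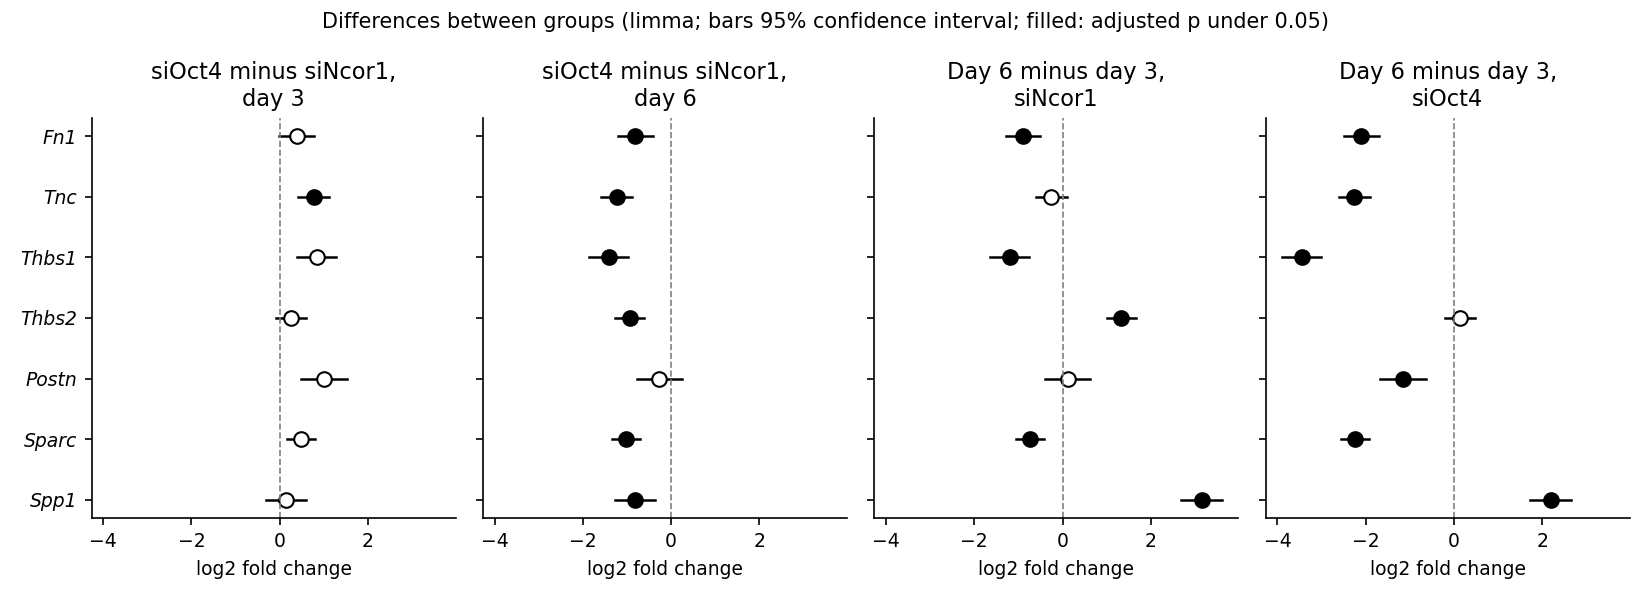
Log2 fold changes of the 7 genes (horizontal axes) in the 4 comparisons, with bars for the 95% confidence interval from limma and filled points for an adjusted p under 0.05 over all tested genes. At day 3 the 7 points lie at or right of 0.15 and 1 is filled, and at day 6 they lie at or left of −0.27 and 6 are filled.

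These courses changed the makeup of the group within each library, which does not depend on how the libraries were scaled. Per exon length, *Thbs1* made up 49.0% and 44.3% of the summed level of the 7 genes in *siNcor1* at day 3, and 19.0% and 18.1% at day 6. In the *siOct4*-labelled libraries it made up 51.5% and 54.9% at day 3, and 14.8% and 12.4% at day 6. *Spp1* made up between 3.31% and 5.91% of the summed level in the 4 libraries of day 3, and between 46.6% and 56.4% in the 4 libraries of day 6. Per exon length, the leading gene of the group was therefore *Thbs1* in each library of day 3 and *Spp1* in each library of day 6, in both knockdowns. As CPM, without division by length, *Spp1* led at day 6 only in replicate 2 of the *siOct4*-labelled libraries. *Thbs1* led in both *siNcor1* libraries of day 6 (1776 and 1727 CPM, with *Spp1* at 1203 and 1204 CPM). *Fn1* led in replicate 1 of *siOct4* day 6 (889 CPM, with *Spp1* at 534 CPM).

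The ratio of *Thbs1* to *Thbs2* per exon length was 13.3 and 9.41 in *siNcor1* and 14.7 and 19.0 in the *siOct4*-labelled libraries at day 3. At day 6 it was 2.10 and 1.80 in *siNcor1*, and 1.48 and 1.31 in the *siOct4*-labelled libraries. *Thbs1* thus stayed above *Thbs2* in all 8 libraries, by less at day 6. The ratio of *Spp1* to *Sparc* per exon length lay between 0.229 and 0.351 in the libraries of day 3 and between 4.82 and 6.54 in those of day 6. With 2 libraries a group an exact permutation test of such a ratio could not reach the threshold, and the ratios are given as values.

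**Figure D3:**
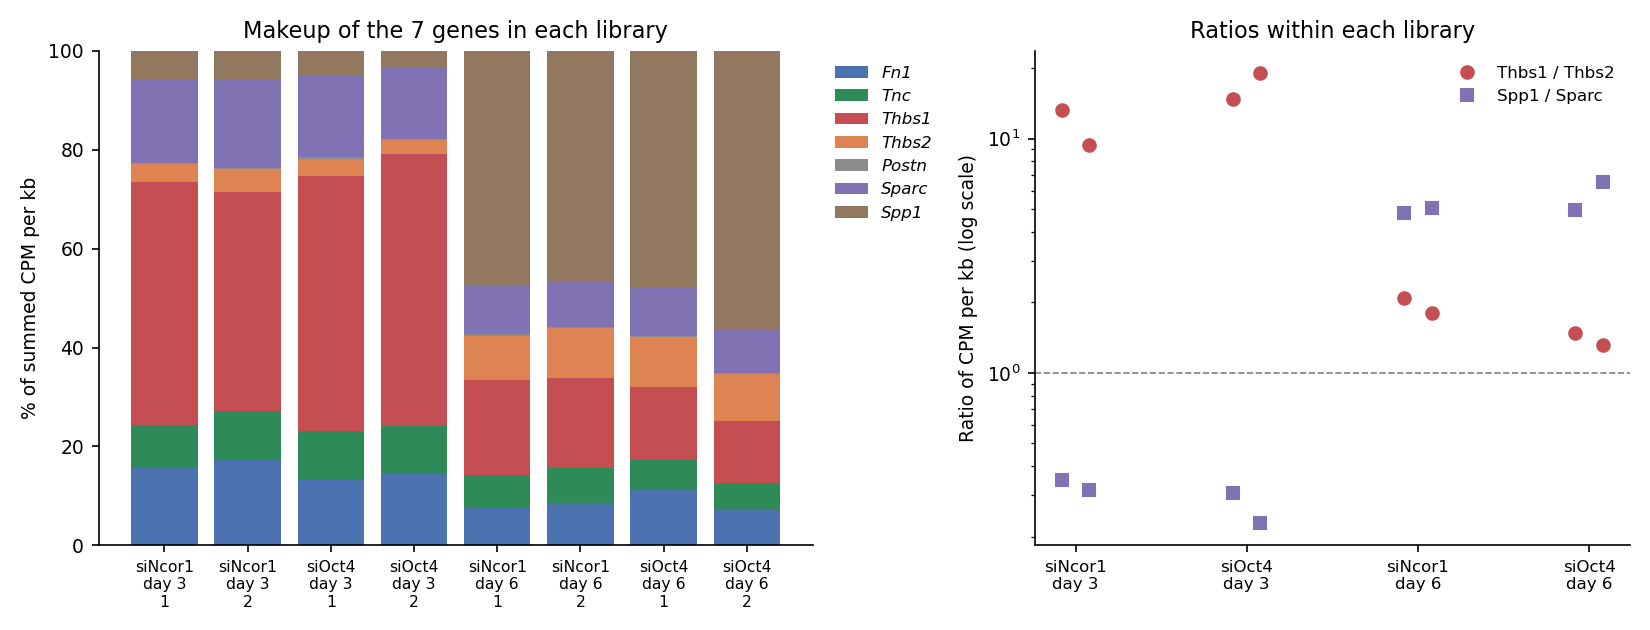
Left, share of each of the 7 genes in their summed CPM per kb of exon (vertical axis, percent) in the 8 libraries. Right, ratio of *Thbs1* to *Thbs2* (circles) and of *Spp1* to *Sparc* (squares) per kb of exon on a log axis, 2 libraries a group, where the first falls from between 9.41 and 19.0 to between 1.31 and 2.10 and the second rises from between 0.229 and 0.351 to between 4.82 and 6.54.

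At day 3 all 7 genes had higher mean values in the *siOct4*-labelled libraries than in *siNcor1*, and for 6 of them, all but *Spp1*, the libraries of the knockdowns did not overlap, where 20.7% of all tested genes were higher without overlap. *Tnc* was the 1 gene called higher, with a log2 fold change of 0.77 (limma, standard error 0.16, adjusted p = 0.0457), where 0.375% of all tested genes were called higher. *Postn* had the largest log2 fold change of the 7, at 1.002 (standard error 0.24, adjusted p = 0.0732), followed by *Thbs1* at 0.84 (standard error 0.20, adjusted p = 0.0759), and neither passed. Over 19 other settings *Postn* passed in 5 and *Thbs1* in 4. Among these were the fits without replicate 1 or 2 of *siOct4* day 6, libraries that enter this comparison only through the spread estimated over the 4 groups. With any 1 library of day 3 left out neither passed. Their log2 fold changes were then between 0.82 and 1.18 for *Postn* and between 0.64 and 1.04 for *Thbs1*. The log2 fold changes of *Sparc*, *Thbs2* and *Spp1* were 0.48 (adjusted p = 0.179), 0.26 (adjusted p = 0.646) and 0.15 (adjusted p = 0.912). The call of *Tnc* stood close to the threshold. Its log2 fold change was between 0.57 and 0.88 over 19 other settings and its adjusted p between 0.00956 and 0.447, and the call was lost in 10 of them, among them the fits without replicate 1 (adjusted p = 0.182) or 2 (0.447) of *siNcor1* day 3, replicate 1 (0.0994) or 2 (0.339) of *siOct4* day 3, and replicate 1 (0.0958) or 2 (0.0947) of *siNcor1* day 6.

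At day 6 the order was the opposite. All 7 genes had lower mean values in the *siOct4*-labelled libraries, and 6 of the 7 were called lower, where 18.6% of all tested genes were called lower and 12.1% higher. The libraries of the knockdowns did not overlap for these 6, where 34.8% of all tested genes were lower without overlap. *Thbs1* was 2.67-fold lower (limma, log2 fold change −1.41, standard error 0.20, adjusted p = 0.000724), *Tnc* was 2.34-fold lower (log2 fold change −1.23, standard error 0.16, adjusted p = 0.000493) and *Sparc* was 2.04-fold lower (log2 fold change −1.03, standard error 0.14, adjusted p = 0.000656). *Thbs2* was 1.91-fold lower, with a log2 fold change of −0.94 (adjusted p = 0.00138). *Spp1*, although it had risen in both knockdowns, was 1.76-fold lower (log2 fold change −0.82, adjusted p = 0.0131), and *Fn1* had a like difference (log2 fold change −0.81, adjusted p = 0.00634). *Postn* was the exception, with a log2 fold change of −0.27 (95% confidence interval −0.78 to 0.25, adjusted p = 0.423) and overlapping libraries. Its value was 0.0054 without replicate 1 of *siNcor1* day 6, 0.10 without replicate 1 of *siOct4* day 6, and −0.63 (adjusted p = 0.0372) without replicate 2 of *siOct4* day 6. The call of *Fn1* was lost without replicate 2 of *siNcor1* day 6 (−0.71, adjusted p = 0.0824). The call of *Spp1* was lost without replicate 1 (adjusted p = 0.0562) or 2 (0.0771) of *siNcor1* day 6 and without replicate 1 of *siOct4* day 6 (log2 fold change −0.46, adjusted p = 0.0626), and also in the fit without a variance trend (adjusted p = 0.0567).

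The change of the knockdown difference from day 3 to day 6 was tested itself. It was negative for all 7 genes and all 7 passed the threshold (limma interaction), where 20.7% of all tested genes were called in either direction and 12.9% with a negative change. It was largest for *Thbs1*, at −2.25 on the log2 scale (standard error 0.28, adjusted p = 0.000755), and for *Tnc*, at −2.00 (standard error 0.23, adjusted p = 0.000608). *Sparc* followed at −1.51 (adjusted p = 0.000916), then *Postn* at −1.27 (adjusted p = 0.0223), *Fn1* at −1.20 (adjusted p = 0.00797), *Thbs2* at −1.19 (adjusted p = 0.00329) and *Spp1* at −0.96 (adjusted p = 0.0396). The same values state by how much more each gene fell, or by how much less it rose, with time in the *siOct4*-labelled libraries than in *siNcor1*. The calls of *Tnc*, *Thbs1*, *Thbs2* and *Sparc* were held under 18 other settings, with adjusted p between 7.44e-05 and 0.0241. Without replicate 2 of *siNcor1* day 3 the number of genes called was 4, with *Fn1* at an adjusted p of 0.0541, *Postn* at 0.121 and *Spp1* at 0.183. The call of *Fn1* was also lost without replicate 2 of *siNcor1* day 6 (adjusted p = 0.0534), and that of *Postn* without replicate 2 of *siOct4* day 3 (0.0759) or replicate 1 of *siNcor1* day 6 (0.0817). *Spp1* was the least stable of the 7, with its call also lost without replicate 1 of *siNcor1* day 3 (0.058), replicate 1 of *siOct4* day 3 (0.126), replicate 1 (0.0882) or 2 (0.112) of *siNcor1* day 6, or replicate 1 of *siOct4* day 6 (interaction −0.61, adjusted p = 0.062). Without a variance trend the calls of *Postn* (0.0772) and *Spp1* (0.115) were lost, and without a filter on low values that of *Spp1* (0.0544).

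**Figure D4:**
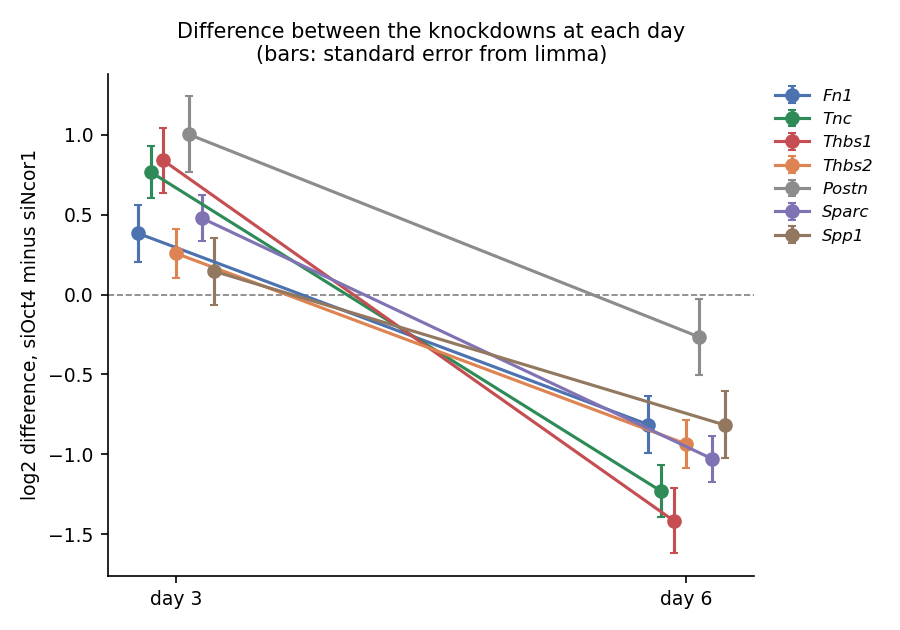
Log2 difference between the siOct4-labelled libraries and siNcor1 (vertical axis) at day 3 and at day 6 for the 7 genes, with bars for the standard error from limma. Every line goes down, from between 0.15 and 1.002 at day 3 to between −1.41 and −0.27 at day 6.

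The order of the 4 groups can thus be given for each gene. For *Fn1*, *Thbs1* and *Sparc* it ran from the *siOct4*-labelled libraries at day 3 through *siNcor1* at day 3 and *siNcor1* at day 6 to the *siOct4*-labelled libraries at day 6, and the first 2 of these neighbours did not differ past the threshold. *Tnc* had the same order, but there the neighbours that did not differ past the threshold were *siNcor1* at day 3 and at day 6. For *Thbs2* and *Spp1*, *siNcor1* at day 6 was highest and the *siOct4*-labelled libraries at day 6 came next, and the 2 groups of day 3 did not differ past the threshold. The *siOct4*-labelled libraries of day 6 and of day 3, next to each other in that order, differed past the threshold for *Spp1* but not for *Thbs2*. For *Postn* the *siOct4*-labelled libraries of day 3 were highest, and no pair among the other 3 groups that was tested differed past the threshold.

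Across the 8 libraries the log2 levels of *Fn1*, *Tnc*, *Thbs1* and *Sparc* were alike in course, with Pearson's r between 0.944 and 0.996 for their 6 pairs. *Thbs1* and *Thbs2* had r = −0.345, and *Thbs2* and *Spp1* had r = 0.852. The 8 points come from 4 groups and share the time and knockdown differences, so these values are descriptions. Among all tested genes, those with the smallest root mean square difference from *Fn1* over the 8 libraries, after each gene was centred on its mean, were *Adamtsl1*, *Flna* (filamin A) and *Col5a1* (a collagen V chain), at between 0.080 and 0.091 on the log2 scale. For *Tnc* they were *Ptprd*, *Col12a1* and *Lrrc32* (between 0.12 and 0.14), and for *Thbs1* they were *Col8a1*, *Inhba* and *Tpm2* (between 0.18 and 0.19). For *Sparc* they were *Cav1* (caveolin 1), *Itga1* and *Col4a5* (between 0.093 and 0.097), and for *Thbs2* *Apod*, *Layn* and *Xylt1* (between 0.090 and 0.11). *Spp1* was closest to *Ptgr1*, *Gsta3* and *Crabp1* (between 0.15 and 0.26), and *Postn* to *Sod3*, *K230015D01Rik* and *Actr3b* (between 0.20 and 0.22).

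Other matricellular glycoproteins were taken as a list of 21 genes, of which 15 were tested. At day 6, 11 of the 15 were lower in the *siOct4*-labelled libraries (limma), against 18.6% of all tested genes, with a median log2 fold change of −0.93 against −0.025 for all tested genes. *Ctgf*, which encodes the connective tissue growth factor CCN2, was at 18.3 and 15.0 CPM in *siNcor1* and at 3.28 and 4.24 CPM in the *siOct4*-labelled libraries, a log2 fold change of −2.11 (adjusted p = 0.000291). *Tnn*, which encodes tenascin-N, had a log2 fold change of −1.52 at day 6 (adjusted p = 0.00274) and of 1.61 at day 3 (adjusted p = 0.0202), where it was the 1 gene of the list called. With time, 6 of the 15 rose and 6 fell in *siNcor1*, while 2 rose and 10 fell in the *siOct4*-labelled libraries. Of all tested genes, 13.8% rose and 20.9% fell in *siNcor1*, and 22.2% rose and 30.5% fell in the *siOct4*-labelled libraries. The log2 fold change of *Ctgf* with time was −2.43 in *siNcor1* (adjusted p = 3.29e-05) and −5.32 in the *siOct4*-labelled libraries (adjusted p = 4.64e-08). *Tnxb*, which encodes tenascin-X, rose by 1.91 in *siNcor1* (adjusted p = 0.000139), and its log2 fold change was 1.85 in the *siOct4*-labelled libraries (adjusted p = 4.98e-05). The calcium-binding *Smoc1* fell by 1.59 in *siNcor1* (adjusted p = 0.000435), and in the *siOct4*-labelled libraries *Smoc2* fell by 3.28 (adjusted p = 4.17e-06) and *Spock2* rose by 2.04 (adjusted p = 4.01e-05).

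Of 18 cell-surface receptors of these proteins, 17 were tested. *Itga5*, the alpha subunit of the classical fibronectin receptor, was at 233 and 171 CPM in *siNcor1* and at 335 and 405 CPM in the *siOct4*-labelled libraries at day 3, the 1 receptor called at that day (limma, log2 fold change 0.88, adjusted p = 0.0201). With time it fell by 0.85 on the log2 scale in *siNcor1* (adjusted p = 0.00156) and fell by 2.53 in the *siOct4*-labelled libraries (adjusted p = 3.43e-07). At day 6, 9 receptors were lower and 1 higher in the *siOct4*-labelled libraries, against 18.6% and 12.1% of all tested genes, with a median log2 fold change of −0.62. *Itgb8* had a log2 fold change of −1.04 (adjusted p = 0.0112), and the syndecan *Sdc4*, a co-receptor for fibronectin, of −1.03 (adjusted p = 0.00044). *Itga9*, a receptor subunit for tenascin-C and osteopontin, was higher, at 0.63 (adjusted p = 0.0125). From day 3 to day 6, 5 receptors fell and 1 rose in *siNcor1*, and 13 fell and 2 rose in the *siOct4*-labelled libraries. The shares of all tested genes were 20.9% lower and 13.8% higher in *siNcor1*, to which the receptors lay near, and 30.5% and 22.2% in the *siOct4*-labelled libraries. *Ptprz1*, a tenascin-binding phosphatase, fell in both, with log2 fold changes of −2.31 (adjusted p = 0.00018) and −2.24 (adjusted p = 6.68e-05), and *Sdc1* rose in both, by 0.49 (adjusted p = 0.00746) and by 0.43 (adjusted p = 0.00859). *Itgb3*, the beta subunit that pairs with alpha V as an osteopontin receptor, rose in the *siOct4*-labelled libraries, by 0.66 (adjusted p = 0.0062).

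All 9 genes of TGF-beta ligands, receptors and feedback were tested. At day 6, 7 of the 9 were lower in the *siOct4*-labelled libraries (limma), against 18.6% of all tested genes, with a median log2 fold change of −0.72. The ligand *Tgfb3* fell with time in both knockdowns, with log2 fold changes of −1.53 in *siNcor1* (adjusted p = 8.46e-05) and −3.15 in the *siOct4*-labelled libraries (adjusted p = 1.89e-07), and was lower in the *siOct4*-labelled libraries at day 6, at −1.13 (adjusted p = 0.000959). In *siNcor1*, *Tgfb1* and *Tgfbr2* rose, by 0.87 (adjusted p = 0.0018) and by 0.52 (adjusted p = 0.00747), while 4 genes of the list fell, against 13.8% and 20.9% of all tested genes.

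**Figure D5:**
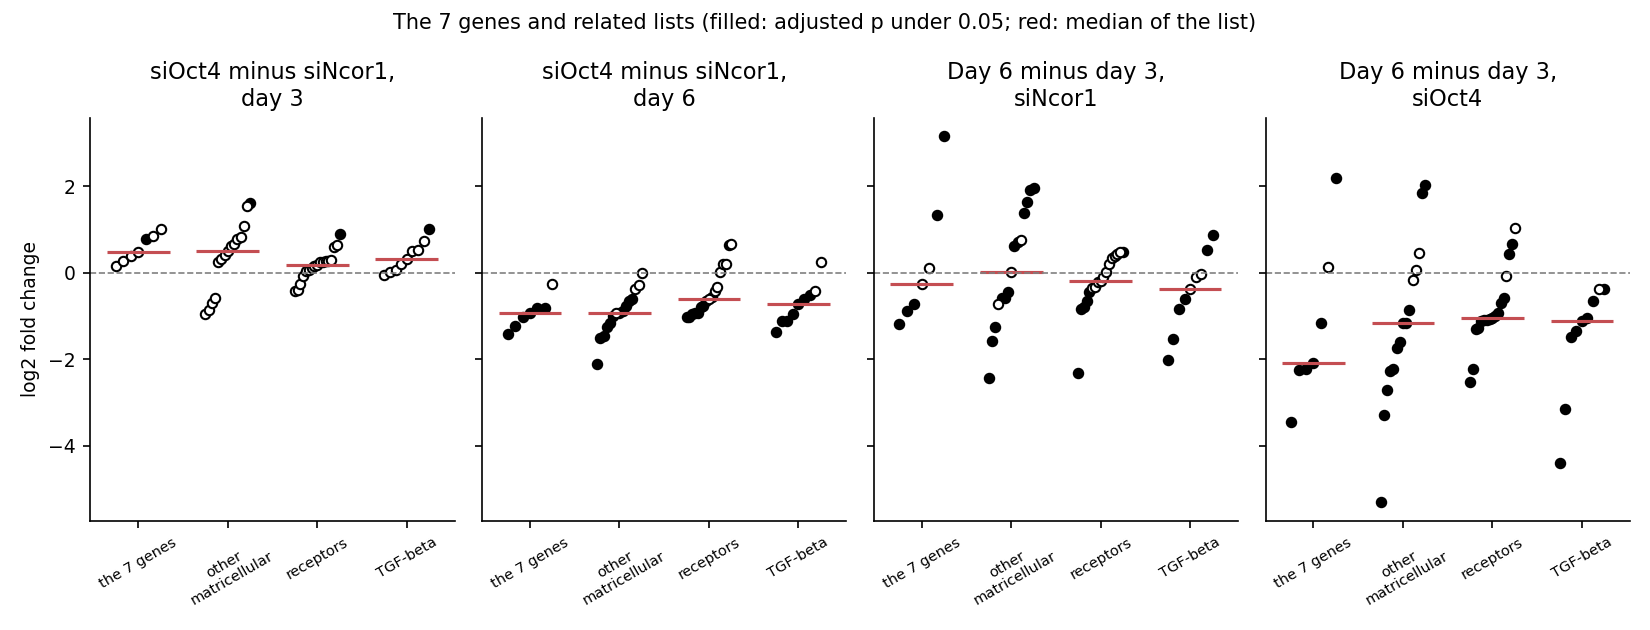
Log2 fold changes (vertical axis) of the tested genes of the 7-gene group (7), the other matricellular glycoproteins (15), the receptors (17) and the TGF-beta list (9) in the 4 comparisons, filled where the adjusted p was under 0.05, with the median of each list in red. At day 6 between the knockdowns the 4 medians lie between −0.94 and −0.62.

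Markers of cell types were read in the same libraries. Of the 9 fibroblast markers, 7 were lower in the *siOct4*-labelled libraries at day 6 (limma), against 18.6% of all tested genes. The median log2 fold change of the 9 was −0.85. From day 3 to day 6 in *siNcor1* 4 rose and 2 fell, against 13.8% and 20.9% of all tested genes. In the *siOct4*-labelled libraries 2 rose and 4 fell with time, against 22.2% and 30.5% of all tested genes, with a median log2 fold change of −0.59. The markers moved in different directions. The collagen I chains *Col1a1* and *Col1a2* and the intermediate filament gene *Vim* were lower in every library of day 6 than in every library of day 3, with *Col1a1* at between 3617 and 6732 CPM at day 3 and between 819 and 1756 CPM at day 6. The small proteoglycan genes *Dcn* and *Lum* were the 2 markers higher in every library of day 6, with *Dcn* at between 24.4 and 40.9 CPM at day 3 and between 75.6 and 169 CPM at day 6. These 5 markers were singled out after their values were seen. The summed level of 5 smooth muscle markers, among them *Acta2*, was between 1318 and 1946 CPM in *siNcor1* and between 2625 and 2904 CPM in the *siOct4*-labelled libraries at day 3, and between 380 and 417 CPM and between 155 and 162 CPM at day 6, which is the order of *Fn1*, *Thbs1* and *Sparc*. All 5 were lower at day 6 than at day 3 in the *siOct4*-labelled libraries and 4 of the 5 in *siNcor1*, against 30.5% and 20.9% of all tested genes. The 5 endothelial markers analysed summed to between 41.1 and 44.8 CPM at day 3 and between 17.0 and 21.9 CPM at day 6, most of it *Tek*, while *Pecam1* and *Cdh5* were at or below 0.757 CPM. *Tek*, the 1 endothelial marker tested, was lower at day 6 than at day 3 in both knockdowns (limma, log2 fold changes −1.22 and −1.31). The 4 skeletal muscle markers were not analysed here. The part of a shift between cell types in the values of the 7 genes was not tested.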

How the data were processed

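RNA was measured by RNA-seq in 8 libraries prepared from 200 ng of total RNA and depleted of ribosomal RNA (2 × 43 bp). The authors mapped these to mm10 with STAR 2.5.2b and deposited log2-cpm values made with edgeR 3.20.9, per the labels. The counter and its annotation are not given in the sources used here.

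Subtracting the constant of 0.136 CPM that stands for 0 reads (lowest deposited value −2.87) gave whole reads, within 0.1 read, for 100% of values. 3 reads are between 0.174 and 0.380 CPM, and the precision rests on 2 libraries a group. Replicate pairs were not repeats of one library, by the chi-square of their reads divided by its degrees of freedom. This was 9.43 in *siNcor1* day 3, 8.44 in *siOct4* day 3, 8.96 in *siNcor1* day 6 and 18.7 in *siOct4* day 6. The replicates of *siOct4* day 6 thus differed most, while the test shares its estimate of the spread over the 4 groups.

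The deposited log2 values of 13866 genes (mean of at least 1 CPM) were tested with limma 3.58.1 in R 4.3.3 (lmFit, eBayes with trend, two-sided, Benjamini-Hochberg adjustment at 0.05), with the 4 groups fitted together. CPM per kb used the union of exons in GENCODE M21, which matched 18969 genes. The test was also run on simulated reads with the same spread setting for every gene and group. That run cannot show how the test behaves where groups differ in spread. Named genes were the 7 members, for each list and comparison up to 2 genes each way with the largest called change and no overlap, and for each member the 3 genes nearest in course. The members and lists (other matricellular genes, receptors, TGF-beta, and markers of fibroblasts, macrophages, osteoblasts, endothelium, smooth and skeletal muscle) were chosen with earlier results of these data known. Proteins were not compared here, and 1 gene that the rule names is not reported here. Figures were drawn with matplotlib 3.10.9.

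Alternatives were no trend, median centring, quantile normalization, totals without *Gm26917*, no filter, a minimum mean of 10 CPM, pseudocounts of 0.1 and 1 CPM, voom on the recovered reads, a replicate block, only the groups compared, and leaving out each library.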

Additional observations from a re-analysis of the deposited data

Results flagged for a closer look

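The difference between the knockdowns differed between the days for all 7 genes, by a test of the difference itself (limma interaction), and 20.7% of all tested genes were called by this test. The change of the *siOct4* minus *siNcor1* difference from day 3 to day 6 was −1.20 on the log2 scale for *Fn1* (adjusted p = 0.00797), −2.00 for *Tnc* (adjusted p = 0.000608), −2.25 for *Thbs1* (adjusted p = 0.000755), −1.19 for *Thbs2* (adjusted p = 0.00329), −1.27 for *Postn* (adjusted p = 0.0223), −1.51 for *Sparc* (adjusted p = 0.000916) and −0.96 for *Spp1* (adjusted p = 0.0396).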

How the results depend on the processing

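Of 35 results (7 genes in 5 comparisons), 22 kept their direction and their side of the threshold under all alternatives run. At day 3 the number of genes called was 1, and it was 0 without the trend, with quantile normalization, without a filter and with a mean of at least 10 CPM, 2 with median centring, with the replicate block and with only the groups compared, 3 with voom, and between 0 and 3 with 1 library left out. At day 6 it was between 4 and 7 with 1 library left out, and for the interaction between 4 and 7. The other counts were within 1.5 times. The values that changed sign were not called in either setting. *Spp1* at day 3 was −0.0061 without replicate 2 of *siNcor1* day 3 and −0.044 without replicate 1 of *siOct4* day 3 (range −0.044 to 0.33 with 1 library left out). *Postn* at day 6 was 0.0054 without replicate 1 of *siNcor1* day 6 and 0.10 without replicate 1 of *siOct4* day 6 (range −0.63 to 0.10). *Postn* over time in *siNcor1* was −0.068 without replicate 2 of *siNcor1* day 3 and −0.16 without replicate 1 of *siNcor1* day 6 (range −0.16 to 0.38), and *Thbs2* over time in the *siOct4*-labelled libraries was −0.061 without replicate 2 of day 6 (range −0.061 to 0.34). The cause was not tested. Same-numbered libraries had correlations of deviations between −0.040 and 0.281, 3 of 6 were over 0.1, and the numbers were not taken to pair the libraries. With the replicate block *Thbs1* also passed at day 3 (adjusted p = 0.0477), where the calls over all genes went from 148 to 222, and 6, 5, 6 and 7 of the genes were called in the other comparisons, as without it. With 2 libraries a group, a left-out library leaves 1 that is assumed to vary like the other groups.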
